A study of Rattus norvegicus with 9 samples.

Results

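The sodium pump moves sodium out of the cell and potassium into it, and its beta subunits and FXYD regulators are described here in 3 populations of rat oligodendrocyte progenitor cells. The set was defined by gene symbol and holds 7 genes: the FXYD genes Fxyd1, Fxyd2, Fxyd5, Fxyd6 and Fxyd7 and the beta subunit genes Atp1b1 and Atp1b2. Of these 7 genes, 6 were measured, by 8 of the 35129 probes of the arrays, among 12167 genes that a probe named. Fxyd7 was not analysed here. Fxyd1 was put in the set because its values were low in cells positive for NG2 only, so its differences from those cells are given as a description, without a test.

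Cells were taken from newborn rats and sorted by surface antigens into O4 (O4-positive, NG2-negative), NG2/A2B5 (positive for both NG2 and A2B5) and NG2 (positive for NG2). The O4 antibody binds sulfatides, which appear late in the lineage, whereas A2B5 binds gangliosides of early glia and NG2 is a proteoglycan, the product of Cspg4. Each was hybridised to 3 one-colour arrays that carry the numerals I, II and III, and no treatment or genotype is named. The design text mentions 3 cultures, but no label links a numeral to a culture, and the p-values therefore rest on a spread between arrays that may be technical.

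The pump is built from a catalytic alpha subunit and a glycosylated beta subunit, which the alpha subunit needs to fold and to reach the cell surface. FXYD proteins are small single-span membrane proteins that bind the assembled pump and set its affinity for ions in a tissue-dependent way. In glia the pump maintains the sodium gradient that drives uptake of transmitters and takes part in clearing potassium released by active axons.

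The promoters of Fxyd1, Fxyd6 and Atp1b2 are shown because Fxyd1 was the member whose arrays separated NG2 from the other populations, and because Fxyd6 and Atp1b2 followed the array numerals in the same order as each other. They are RefSeq windows of assembly GRCr8, from 250 bases before to 50 bases after the gene's start, at chr1:95418531-95418830 on the minus strand for Fxyd1, chr8:54575575-54575874 on the plus strand for Fxyd6 and chr10:54823659-54823958 on the minus strand for Atp1b2. Each is written 5′ to 3′, and capitals mark matches to CANNTG (the E-box), GGGCGG (the GC box) and TATAAA, each searched on both strands and none overlapping another.
Fxyd1: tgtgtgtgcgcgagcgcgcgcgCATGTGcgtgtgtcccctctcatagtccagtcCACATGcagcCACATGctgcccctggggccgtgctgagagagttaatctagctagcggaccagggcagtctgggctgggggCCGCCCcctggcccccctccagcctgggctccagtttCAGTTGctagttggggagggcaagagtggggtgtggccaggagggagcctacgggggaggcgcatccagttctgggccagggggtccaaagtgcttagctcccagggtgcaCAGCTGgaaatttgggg
Fxyd6: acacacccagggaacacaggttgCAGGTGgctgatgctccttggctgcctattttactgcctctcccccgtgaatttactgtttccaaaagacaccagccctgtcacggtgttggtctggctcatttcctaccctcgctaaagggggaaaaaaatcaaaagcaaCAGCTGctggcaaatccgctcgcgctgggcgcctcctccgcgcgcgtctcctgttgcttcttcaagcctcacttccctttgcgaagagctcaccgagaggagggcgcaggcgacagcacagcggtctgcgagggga
Atp1b2: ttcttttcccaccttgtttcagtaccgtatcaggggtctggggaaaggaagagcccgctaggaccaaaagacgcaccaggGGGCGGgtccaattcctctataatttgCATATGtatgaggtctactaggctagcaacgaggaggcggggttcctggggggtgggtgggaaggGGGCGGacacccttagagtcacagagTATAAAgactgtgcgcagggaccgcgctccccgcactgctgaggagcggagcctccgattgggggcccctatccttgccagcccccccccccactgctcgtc
The Fxyd1 window held 5 matches to CANNTG and 1 to GGGCGG. At least 5 CANNTG matches were found in 1.77% of the 33469 promoters of the table, and at least 1 GGGCGG match in 33.1%. The Fxyd6 window held 2 CANNTG matches, a number that 38.6% of promoters reached, and no GGGCGG or TATAAA. The Atp1b2 window held 1 CANNTG match (72.1% of promoters), 2 GGGCGG matches (at least 2 in 17% of promoters) and TATAAA, whose first base lay at -52 from the start and which 14.2% of promoters contained. A match describes the letters only. Of the 7 listed genes, 4 had an entry in the promoter table, the fourth being Fxyd5.

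The values are the deposited scaled probe intensities, in arbitrary units, or their log2. A probe's signal depends on its sequence, so levels are compared between arrays for 1 probe and not between genes. Array medians lay between 1.05 and 1.07 and the 25th percentiles of all probes between 0.205 and 0.255, and values near that percentile were taken as close to background. Of 8 measured oligodendrocyte lineage markers, 7 read above the 25th percentile on every array, among them Sox10, Cnp, Bcas1 and Cspg4. The gene of the NG2 antigen, Cspg4, had log2 means of 6.92 (O4), 7.07 (NG2/A2B5) and 7.22 (NG2), so its RNA was also measured in the population sorted as NG2-negative. Of the markers of other cells, 4 of 8 for astrocytes, 3 of 6 for endothelium and pericytes, 2 of 5 for fibroblasts and meninges, 1 of 4 for neurons and 0 of 7 for microglia read above that percentile on every array.

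Fxyd1, chosen for its low values in NG2, encodes phospholemman, a pump regulator best known from heart and skeletal muscle, where its phosphorylation relieves inhibition of the pump. On arrays I, II and III its intensity was 10.1, 5.80 and 7.65 in O4. It was 12.4, 6.62 and 8.45 in NG2/A2B5. It was 4.14, 2.41 and 2.84 in NG2. All NG2 arrays lay below all 6 others, and on every array the probe stood between the 61.9th and 82.5th percentile of all probes. In bulk samples like these, fewer cells that express a gene and less RNA per cell cannot be told apart.

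On the log2 scale Fxyd1 averaged 2.94 ± 0.40 in O4, 3.15 ± 0.46 in NG2/A2B5 cells and 1.61 ± 0.40 in NG2 cells (SD, n = 3 each). The log2 difference was 1.33 for O4 minus NG2, or 2.51-fold, and by numeral it was 1.29, 1.27 and 1.43. For NG2/A2B5 minus NG2 it was 1.54, or 2.90-fold, with 1.58, 1.46 and 1.57 by numeral. Among all genes, arrays did not overlap and were higher for 7.5% in O4 than in NG2 and for 5.2% in NG2/A2B5 than in NG2, and since Fxyd1 was chosen for these values, no test is attached to them. Between O4 and NG2/A2B5, which did not enter the choice, the log2 difference was -0.21 (95% interval -0.96 to 0.54, limma adjusted p = 0.9997). The arrays of these 2 populations overlapped, and the interval allows a difference in either direction.

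The marker genes of choroid plexus and ependyma, tissues in which phospholemman is known, summed to an intensity of 15.1 to 19.0 on O4 arrays, 13.0 to 18.0 on NG2/A2B5 arrays and 12.5 to 15.2 on NG2 arrays. Of these 7 markers, 1, Folr1, read above the 25th percentile on every array, and the transthyretin gene Ttr read below it on 6 of 9 arrays. Most of each sum came from Folr1, which had a log2 mean of 3.87 in O4 cells, 3.91 in NG2/A2B5 cells and 3.70 in NG2 cells. Their part in the Fxyd1 difference was not tested.

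**Figure D1:**
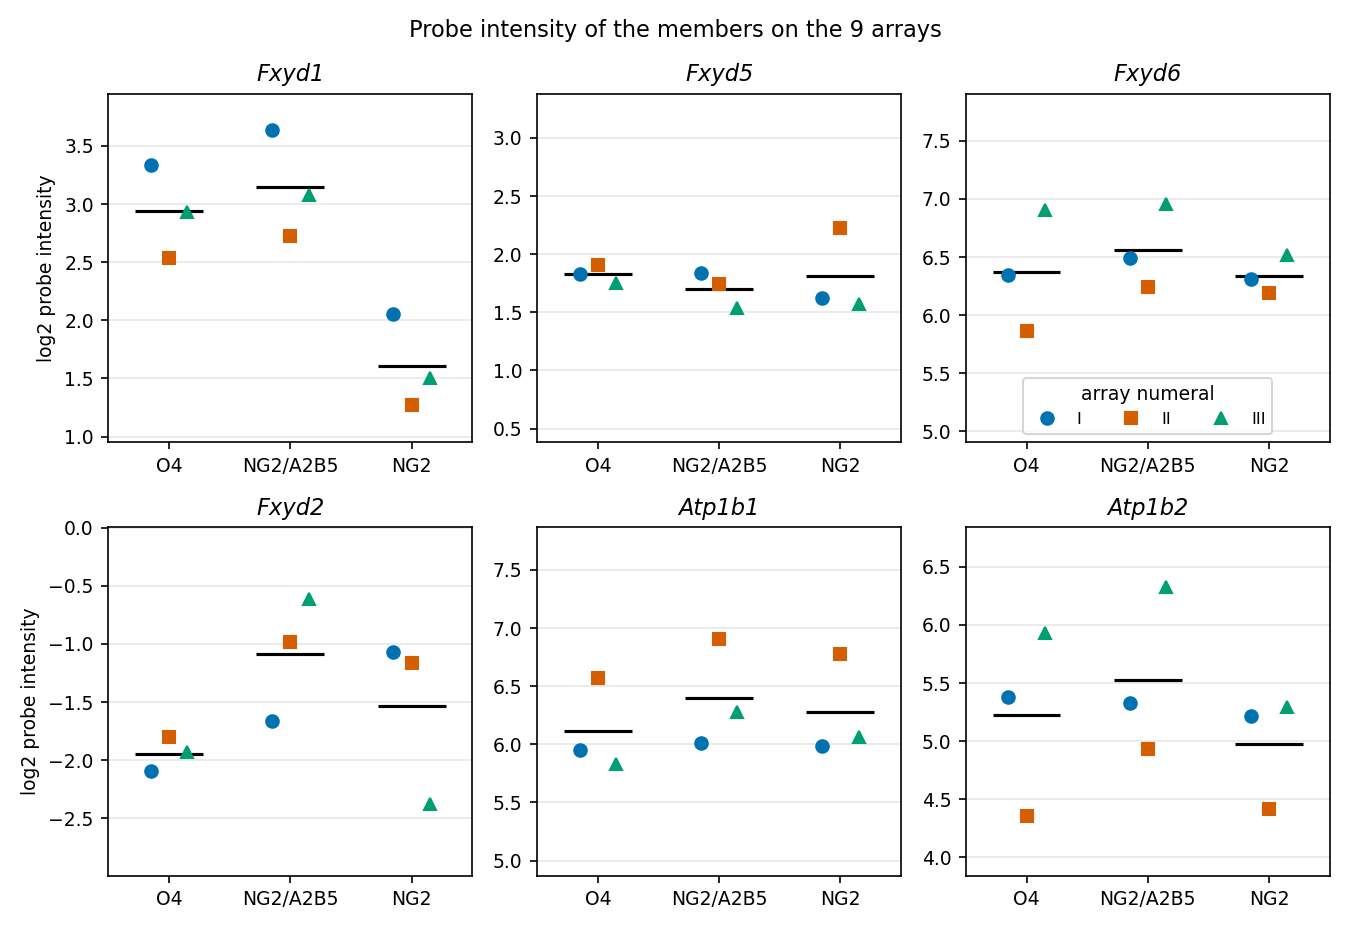
Log2 probe intensity (vertical axis, each panel spanning the same range) of the 6 measured genes in O4, NG2/A2B5 and NG2. Symbols are arrays I, II and III, and black lines are means of 3 arrays. For Fxyd1 the NG2 arrays, at 1.27 to 2.05, lie below all others, which start at 2.53, while for Atp1b2 and Fxyd6 array III is the highest and array II the lowest in each population.

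The other 3 measured FXYD genes did not pass the test in any comparison of populations. Fxyd6 encodes phosphohippolin, an FXYD protein abundant in brain. Its intensity on arrays I, II and III was 81.4, 58.2 and 120.1 in O4, 90.3, 75.5 and 123.9 in NG2/A2B5, and 79.2, 73.0 and 91.7 in NG2. The populations overlapped, and array III was the highest in each. Log2 means were 6.37 ± 0.52 in O4, 6.56 ± 0.36 in NG2/A2B5 cells and 6.34 ± 0.17 in NG2 cells (SD, n = 3 each). The log2 difference was -0.19 for O4 minus NG2/A2B5 (95% interval -0.88 to 0.50), 0.03 for O4 minus NG2 (-0.65 to 0.72) and 0.22 in NG2/A2B5 minus NG2 (-0.46 to 0.91). The smallest of the 3 limma adjusted p-values was 0.985.

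Fxyd5 encodes dysadherin, an FXYD protein with a long extracellular part that is also known for weakening cell adhesion. Its intensity was 3.56, 3.74 and 3.37 in O4, 3.57, 3.35 and 2.90 in NG2/A2B5, and 3.09, 4.68 and 2.98 in NG2 on arrays I, II and III. Array II of NG2 was the highest, and the populations overlapped. Log2 differences were 0.12 for O4 minus NG2/A2B5 (95% interval -0.35 to 0.59), 0.02 for O4 minus NG2 (-0.45 to 0.49) and -0.10 in NG2/A2B5 minus NG2 (-0.57 to 0.37).

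Fxyd2, the gamma subunit known from the kidney, read close to background. Its brighter probe gave 0.234, 0.287 and 0.262 in O4, 0.316, 0.506 and 0.655 in NG2/A2B5, and 0.478, 0.445 and 0.192 in NG2 on arrays I, II and III. The O4 arrays all lay below the NG2/A2B5 arrays, and the NG2 arrays overlapped both. The log2 difference for O4 minus NG2/A2B5 was -0.86 (95% interval -1.78 to 0.06, limma adjusted p = 0.9997), and by numeral it was -0.43, -0.82 and -1.32. Arrays without overlap and lower in O4 were found for 3.43% of all genes in this comparison. The second Fxyd2 probe, which read below the 25th percentile on 3 arrays, differed by -0.75 with overlapping arrays (95% interval -2.80 to 1.31). For O4 minus NG2 the brighter probe differed by -0.41 (-1.33 to 0.51), and for NG2/A2B5 minus NG2 by 0.45 (-0.47 to 1.37).

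The beta subunit genes did not pass the test between populations either. Atp1b1 encodes beta-1, the most widespread beta subunit. Its intensity on arrays I, II and III was 61.9, 95.02 and 56.9 in O4, 64.5, 120.2 and 77.5 in NG2/A2B5, and 63.5, 109.6 and 66.7 in NG2. Array II was the highest in each population, and the populations overlapped. Log2 differences were -0.28 for O4 minus NG2/A2B5 (95% interval -1.05 to 0.49), -0.16 for O4 minus NG2 (-0.93 to 0.61) and 0.12 in NG2/A2B5 minus NG2 (-0.64 to 0.89). By numeral, each of these 3 differences had the same sign on arrays I, II and III.

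Atp1b2 encodes beta-2, first described in glia as the adhesion molecule AMOG. Its brighter probe gave 41.7, 20.5 and 61.1 in O4, 40.1, 30.6 and 80.4 in NG2/A2B5, and 37.1, 21.4 and 39.2 in NG2 on arrays I, II and III. The populations overlapped, and array II was the lowest in each. Log2 differences were -0.31 for O4 minus NG2/A2B5 (95% interval -1.47 to 0.86), 0.25 for O4 minus NG2 (-0.92 to 1.41) and 0.55 in NG2/A2B5 minus NG2 (-0.61 to 1.72). The second Atp1b2 probe was dimmer, at 0.986 to 1.65, and differed by 0.05, 0.15 and 0.10 in these comparisons.

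Read as a group, 0 of the 6 measured genes passed a limma adjusted p of 0.05 in O4 minus NG2/A2B5, against 0.00822% of all genes tested. Leaving aside Fxyd1, 0 of the other 5 passed in O4 minus NG2 (0.00822% of all genes) and 0 of 5 in NG2/A2B5 minus NG2 (0% of all genes). At an unadjusted p under 0.05 the same counts were 0 of 6, 0 of 5 and 0 of 5, against 3.28%, 8% and 4.48% of all genes. Leaving aside Fxyd1, the differences of these genes ran from -0.86 to 0.55.

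**Figure D2:**
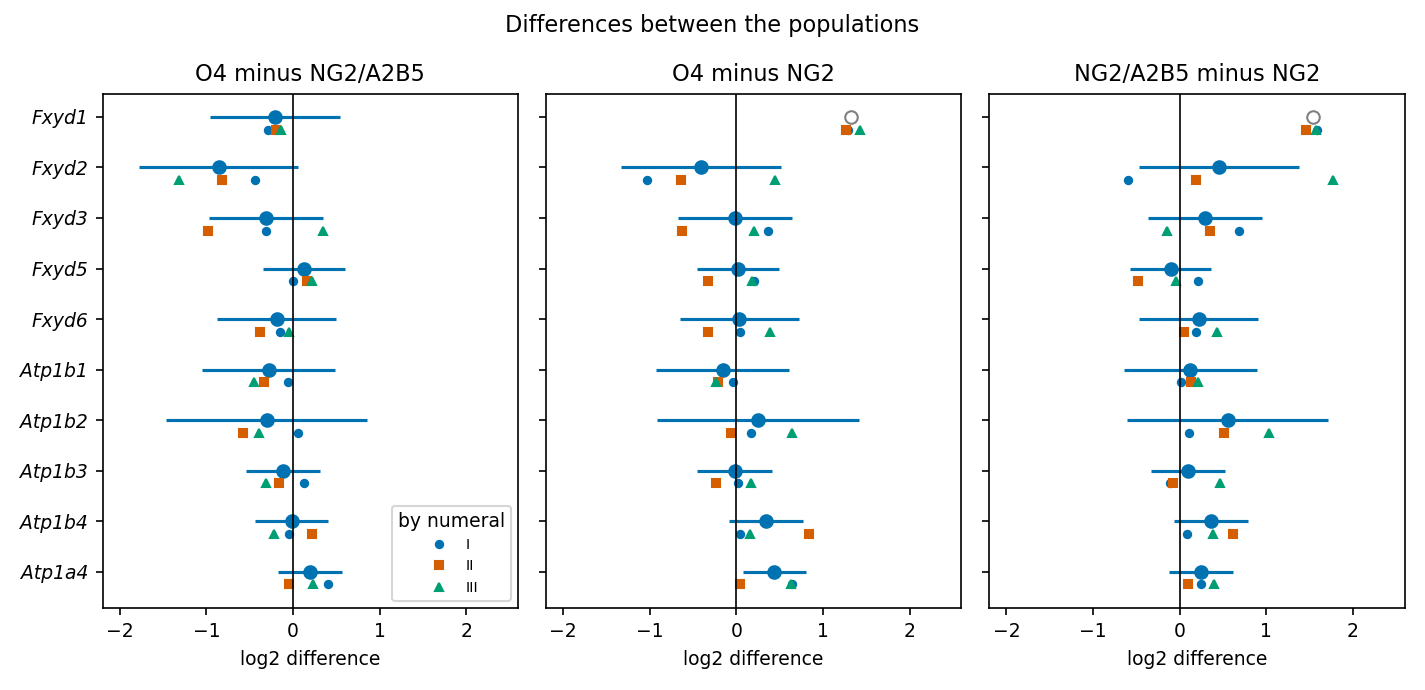
Log2 difference between populations (horizontal axis) for the measured members and the 4 other pump and FXYD genes, with filled symbols and bars for the limma estimate and its 95% interval. Open grey circles are the Fxyd1 differences from NG2, which were not tested, and the small symbols are the differences on arrays I, II and III; for Fxyd1 these lie between 1.27 and 1.58 in both comparisons with NG2.

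Of 8 further pump and FXYD genes, 4 were measured: Atp1a4, Atp1b3, Atp1b4 and Fxyd3. None passed the limma adjusted test, and 1, Atp1a4 in O4 minus NG2, had an unadjusted p under 0.05. In that comparison 8% of all genes had an unadjusted p under 0.05, and 0.00822% passed the adjusted test. Atp1a4 encodes the alpha subunit known from sperm and testis. Its intensity was 1.52, 1.17 and 1.499 in O4, 1.15, 1.21 and 1.27 in NG2/A2B5, and 0.969, 1.14 and 0.967 in NG2. All NG2 arrays lay below all arrays of the other populations, as they did for 7.5% of all genes against O4 and 5.2% against NG2/A2B5. The log2 difference from NG2 was 0.44 in O4 (95% interval 0.07 to 0.81, limma adjusted p = 0.579) and 0.25 in NG2/A2B5 (-0.12 to 0.61).

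Atp1b4, a member of the beta family whose product in placental mammals is known as a nuclear membrane protein of muscle, had an intensity of 0.626, 0.890 and 0.646 in O4, 0.648, 0.764 and 0.754 in NG2/A2B5, and 0.610, 0.499 and 0.578 in NG2. Its NG2 arrays were the 3 lowest. NG2 arrays lay below all O4 arrays for 7.5% of all genes and below all NG2/A2B5 arrays for 5.2%. The differences of Atp1b4 from NG2 were 0.34 in O4 (95% interval -0.08 to 0.77) and 0.36 in NG2/A2B5 (-0.06 to 0.79). Its second probe read below the 25th percentile on 4 arrays. On that probe the NG2 arrays overlapped those of both other populations. Atp1b3, the beta-3 subunit, differed by -0.12, -0.02 and 0.10 in O4 minus NG2/A2B5, O4 minus NG2 and NG2/A2B5 minus NG2. Fxyd3, known as Mat-8 from mammary tumours, differed by -0.31, -0.02 and 0.30 in the same comparisons. The brighter probes of Atp1a4 and Atp1b4 stood between the 38.4th and 55.5th percentile of the arrays.

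Of 33 listed transporters that use the sodium gradient, 29 were measured, and 0 passed the limma adjusted test in any comparison of populations. At an unadjusted p under 0.05 there were 2 of 29 in O4 minus NG2/A2B5, 2 in O4 minus NG2 and 1 in NG2/A2B5 minus NG2, against 3.28%, 8% and 4.48% of all genes. In O4 minus NG2/A2B5, 13 had a positive and 16 a negative difference, with a median of -0.02, against 0.02 over all genes. In O4 minus NG2 the counts were 14 and 15 with a median of -0.03, against 0.02 over all genes, and in NG2/A2B5 minus NG2 they were 13 and 16 with a median of -0.08, against -0.01.

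The transporters with the smallest p-values were the following. Slc9a2, a sodium-proton exchanger, averaged -0.12 ± 0.40 in O4 and -1.02 ± 0.57 in NG2/A2B5 on the log2 scale (SD, n = 3 each), a difference of 0.90 (limma adjusted p = 0.9997). Its O4 arrays all lay above the NG2/A2B5 arrays, which was so for 5.35% of all genes. Slc1a2, a glutamate transporter of astrocytes, differed by 0.71 in the same comparison and read below the 25th percentile on 2 arrays. Slc20a2, a sodium-phosphate cotransporter, had NG2 arrays above all arrays of both other populations. Against O4 this was so for 6.55% of all genes, and against NG2/A2B5 for 5.05%. It averaged 0.29 ± 0.28 in O4, 0.53 ± 0.14 in NG2/A2B5 cells and 0.97 ± 0.24 in NG2 cells, a difference of -0.68 for O4 minus NG2 (limma adjusted p = 0.566) and -0.44 in NG2/A2B5 minus NG2 (limma adjusted p = 0.9999). Slc4a10, a sodium-bicarbonate transporter, differed by 0.38 for O4 minus NG2, and Slc6a8, the creatine transporter, by -0.54 for NG2/A2B5 minus NG2, both without overlap of the arrays compared. Arrays without overlap in the same comparison and direction were found for 7.5% and 5.05% of all genes. With the mean of a gene's probes in place of the brightest, the differences were smaller: 0.34 for Slc9a2 and 0.047 for Slc1a2 in O4 minus NG2/A2B5, -0.20 for Slc20a2 and 0.23 for Slc4a10 in O4 minus NG2, and -0.18 for Slc20a2 in NG2/A2B5 minus NG2.

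Of 7 potassium channels and potassium-chloride cotransporters, 6 were measured and 0 passed the limma test between populations, adjusted or unadjusted. The unadjusted shares of all genes were 3.28% in O4 minus NG2/A2B5, 8% in O4 minus NG2 and 4.48% in NG2/A2B5 minus NG2. Positive and negative differences numbered 2 and 4 in O4 minus NG2/A2B5 (median -0.08), 3 and 3 in O4 minus NG2 (median 0.06) and 4 and 2 in NG2/A2B5 minus NG2 (median 0.05). Kcnj10, the main inward rectifier of glia, averaged 1.51 ± 0.23 in NG2/A2B5 and 1.28 ± 0.06 in NG2 (SD, n = 3 each), a difference of 0.23. Kcnj2, another inward rectifier, differed by 0.30, 0.60 and 0.31 in O4 minus NG2/A2B5, O4 minus NG2 and NG2/A2B5 minus NG2. Kcnj16 read below the 25th percentile on 4 arrays and differed by -0.78 for O4 minus NG2/A2B5 and -0.74 for O4 minus NG2.

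Of 9 calcium pumps, 8 were measured and 0 passed the limma adjusted test, with 1, Atp2a3 in O4 minus NG2, at an unadjusted p under 0.05. Over all genes the unadjusted share in that comparison was 8%, and the adjusted share was 0.00822%. Positive and negative differences numbered 5 and 3 in O4 minus NG2/A2B5 (median 0.27), 5 and 3 in O4 minus NG2 (median 0.16) and 2 and 6 in NG2/A2B5 minus NG2 (median -0.13). Atp2a3, a pump of the endoplasmic reticulum, averaged 3.15 ± 0.20 in O4, 2.82 ± 0.01 in NG2/A2B5 cells and 2.54 ± 0.52 in NG2 cells. Its O4 arrays all lay above those of NG2/A2B5, as for 5.35% of all genes, with a difference of 0.33 (95% interval -0.27 to 0.93). Atp2a2, a related pump of the same membrane, was lower on all O4 arrays than on all NG2 arrays, as for 6.55% of all genes, with a difference of -0.37 (-0.84 to 0.09), or -0.17 with the mean of its probes. Atp2b1, a plasma membrane calcium pump, differed by -0.28 for NG2/A2B5 minus NG2. The proton pump relatives Atp12a and Atp4b read below the 25th percentile on 8 and 7 of 9 arrays.

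**Figure D3:**
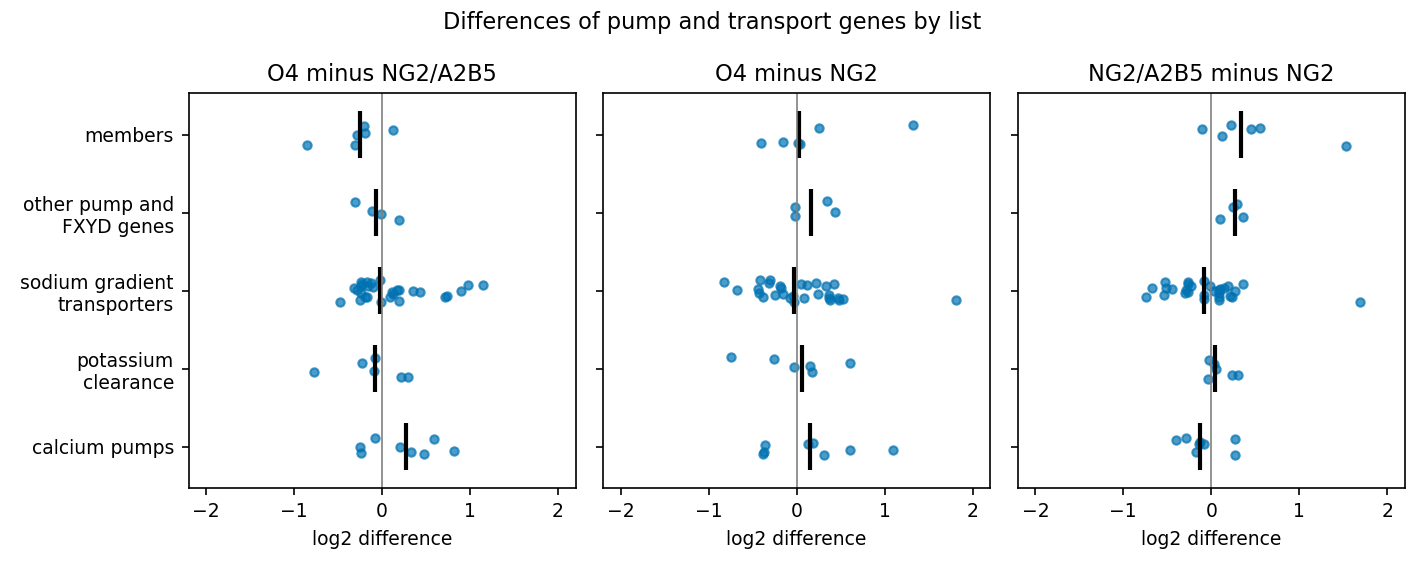
Log2 difference between populations (horizontal axis) for each measured gene of 5 lists, 1 point a gene, with the list median as a black line. In O4 minus NG2, the point at 1.33 among the members is Fxyd1. The 29 sodium gradient transporters run from -0.83 to 1.81 in that comparison, with a median of -0.03.

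Differences between array numerals are a comparison chosen after the values were seen. For Atp1b1, Atp1b2 and Fxyd6 the largest of them exceeded every difference between populations in size. Not each one did: III minus I was 0.07 for Atp1b1 and 0.54 for Atp1b2. The numeral differences were fitted with population and numeral as terms. The population comparisons had no numeral term, so the spread between numerals entered their error. For Atp1b2 the standard error was 0.502 in O4 minus NG2/A2B5 and 0.213 in numeral III minus II. The p-values of populations and numerals are therefore not directly comparable. In numeral III minus II, 2 of the 6 measured members passed a limma adjusted p of 0.05, Atp1b2 upward and Atp1b1 downward, against 3.56% of all genes, or 433 of 12166. In numeral II minus I, 0 of 6 passed, against 0.23%, and in numeral III minus I, 0 of 6 passed, against 0% of all genes. At an unadjusted p under 0.05 it was 3 of 6 in II minus I, against 17.2% of all genes, 3 of 6 in III minus I, against 12.6%, and 4 of 6 in III minus II, against 23.7%. Both calls in III minus II were lost when any 1 of the 9 arrays was left out, and then between 0 and 5 of all genes passed in III minus II.

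Atp1b2 averaged 5.85 in numeral III and 4.57 in numeral II on the log2 scale (n = 3 each). The difference was 1.28, or 2.43-fold (95% interval 0.75 to 1.81, limma adjusted p = 0.0462), and it was 1.58 in O4, 1.39 in NG2/A2B5 cells and 0.87 in NG2 cells. With 1 array left out the adjusted p lay between 0.0711 and 0.164. The second, dimmer Atp1b2 probe did not show this difference: its mean difference was -0.23, and with the mean of both probes the value was 0.53 (limma adjusted p = 0.203).

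Atp1b1 went the other way, with 6.06 in numeral III and 6.75 in numeral II, a difference of -0.70 (95% interval -0.999 to -0.394, limma adjusted p = 0.0483) that was -0.74 in O4, -0.63 in NG2/A2B5 cells and -0.72 in NG2 cells. With 1 array left out its adjusted p lay between 0.0814 and 0.187, and with quantile normalization it was 0.0904. Atp1b1 has 1 probe, so averaging the probes of each gene left its estimate at -0.70, while its adjusted p became 0.0731. Fxyd6 differed by 0.70 for III minus II (0.30 to 1.09, limma adjusted p = 0.0812), and all of its numeral III arrays lay above all of its numeral II arrays, as for 10.5% of all genes. Its adjusted p was 0.0318 with a floor at the 25th percentile, 0.0342 with quantile normalization and 0.00405 with trend and robust variance estimates. Over all genes, 1292 passed in III minus II with the floor and 1884 with trend and robust estimates. With 1 array left out the limma adjusted p of Fxyd6 lay between 0.129 and 0.234. Fxyd1 differed by -0.83 for II minus I (-1.10 to -0.57, limma adjusted p = 0.0589), with -0.80 in O4, -0.91 in NG2/A2B5 cells and -0.78 in NG2 cells. Its adjusted p was 0.0144 with the floor and 0.00249 with trend and robust estimates, settings under which 404 and 836 of all genes passed. With 1 array left out the limma adjusted p of Fxyd1 lay between 0.138 and 0.242. Fxyd5 differed by -0.34 for III minus II (-0.75 to 0.08).

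Nkain4 was the measured gene of 4 that encode proteins known to interact with the pump's beta subunit. Its intensity on arrays I, II and III was 1.94, 1.10 and 5.52 in O4, 2.91, 1.02 and 5.37 in NG2/A2B5, and 2.53, 0.780 and 4.43 in NG2. In each population array III was the highest and array II the lowest, and the populations overlapped. The log2 difference for III minus II was 2.41, or 5.32-fold (95% interval 1.92 to 2.90, limma adjusted p = 0.0209, or 0.0549 to 0.120 with 1 array left out). Between populations, Nkain4 differed by -0.15, 0.14 and 0.29 in O4 minus NG2/A2B5, O4 minus NG2 and NG2/A2B5 minus NG2, with intervals that spanned 0.

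Fxyd6, Atp1b2 and Nkain4 shared the order III, I, II from high to low in all 3 populations, an order held by 2.82% of 12025 genes. Fxyd1 had the order I, III, II in all 3. Some common order was found for 11.1% of genes. The summed intensity of 8 astrocyte markers, most of it from Slc1a3 and Aldoc, was 112 to 160 in numeral III, 65.4 to 101 in numeral II and 90.0 to 111 in numeral I. By their means, 4 of the 8 were higher and 4 lower in numeral III than in numeral II, and Aqp4, Aldh1l1 and Gja1 were lowest in numeral III. The sum over 8 oligodendrocyte lineage genes, most of it from Bcas1, Cnp and Cspg4, was 705 to 827 in numeral III, 531 to 585 in numeral II and 543 to 651 in numeral I. Of these, 5 had a higher mean in numeral III than in numeral II, and Olig1, Olig2 and Mag a lower one. Of the 8 astrocyte markers, 2, Gfap and Aldoc, had the order III, I, II in all populations. They encode an intermediate filament protein and a glycolytic enzyme, and Gfap read below the 25th percentile on 3 arrays. Of the oligodendrocyte lineage genes, 1 of 8, Bcas1, had the same order, as did 1 of 7 microglial markers, C1qa. C1qa read below that percentile on all 9 arrays. The part of these cells in the numeral differences was not tested.

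**Figure D4:**
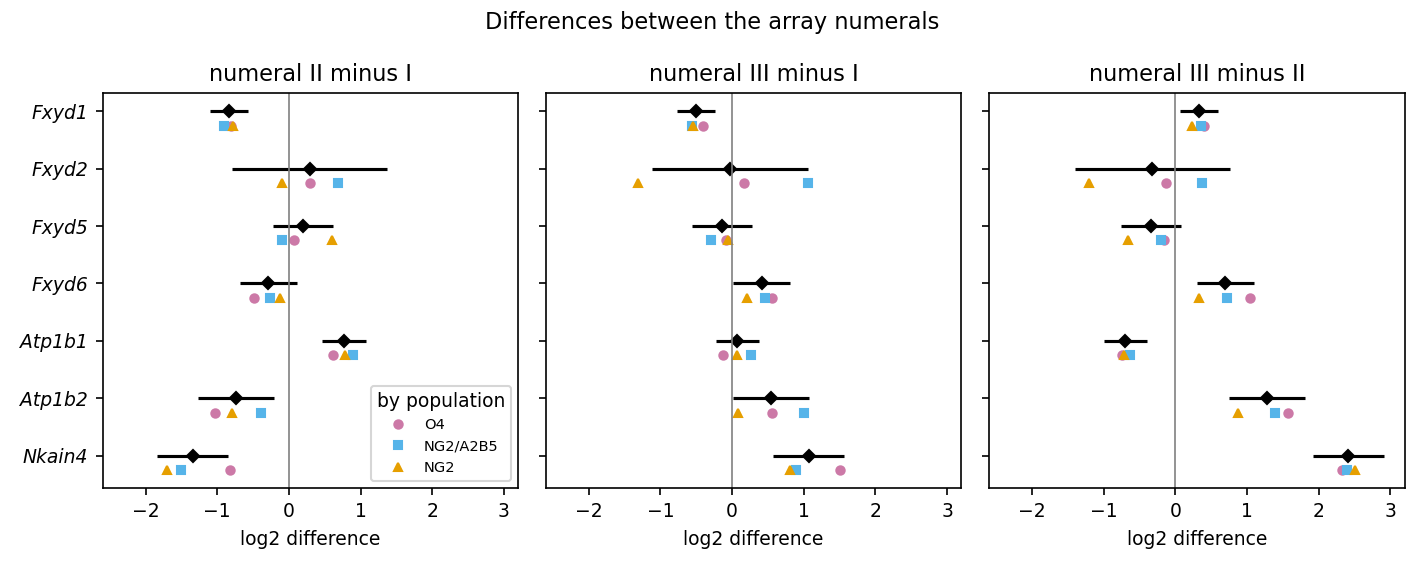
Log2 difference between array numerals (horizontal axis) for the measured members and Nkain4, with black diamonds and bars for the limma estimate and its 95% interval and coloured symbols for the difference within each population. In numeral III minus II, Nkain4 (2.41) and Atp1b2 (1.28) lie to the right of 0 and Atp1b1 (-0.70) to the left in all 3 populations.

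The genes whose pattern over the 9 arrays was most like that of each member were found by Pearson's r of the log2 values among 9774 genes that read above the 25th percentile on every array of at least 1 population. The arrays share populations and numerals, so r describes likeness only. For Fxyd1 the 5 closest genes were Tmem14a (r = 0.968), Acp6 (0.962), Nt5c (0.962), Pcsk4 (0.957) and Pcgf2 (0.954). Acp6 encodes a lysophosphatidic acid phosphatase, Nt5c a nucleotidase, Pcsk4 a proprotein convertase and Pcgf2 a Polycomb protein. Pcsk4 averaged 3.38 ± 0.27 in O4, 3.21 ± 0.38 in NG2/A2B5 cells and 2.22 ± 0.10 in NG2 cells, and Tmem14a averaged 3.05 ± 0.44 in O4 cells, 3.33 ± 0.45 in NG2/A2B5 cells and 2.18 ± 0.53 in NG2 cells (SD, n = 3 each). Acp6, Nt5c and Pcgf2 also had their lowest mean in NG2. These genes were picked for likeness to Fxyd1, which was chosen for low values in NG2, so their low NG2 means follow from the choice.

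Fxyd6 and Atp1b2 had the same closest gene, Ctsf, which encodes cathepsin F and averaged 5.08 in numeral III, 4.34 in numeral II and 4.75 in numeral I. After it came Slc22a23 and Iftap for Fxyd6, and Slc12a9 and Magee1 for Atp1b2. The r between Fxyd6 and Atp1b2 themselves was 0.944. The closest genes were Tigar, Zfp180 and Slc52a2 for Atp1b1, Trim66, Arel1 and Hprt1 for Fxyd5, and Fam117b, Cdkal1 and Cdh6 for Fxyd2.

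Fxyd1 lies on chromosome 1 in a cluster of FXYD genes in the RefSeq order, with Fam187b, Fxyd5 and Fxyd7 on one side and Lgi4, Fxyd3 and Hpn on the other. Of these 6 neighbours, 4 were measured, and their log2 differences from NG2 lay between -0.20 and 0.30. Lgi4, a secreted ligand needed for peripheral myelination, averaged 3.04 in O4, 3.30 in NG2/A2B5 cells and 3.24 in NG2 cells, with differences from NG2 of -0.20 in O4 (95% interval -1.15 to 0.75) and 0.06 in NG2/A2B5 (-0.89 to 1.01). Hpn, the protease hepsin, differed by 0.16 for O4 minus NG2 (-0.22 to 0.53) and 0.14 in NG2/A2B5 minus NG2 (-0.24 to 0.51). The values of Fxyd5 and Fxyd3 are given with the other FXYD genes.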

How the data were processed

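RNA of 9 rat cell samples, 3 populations with 3 arrays each, was measured on one-colour arrays. Per the labels' protocols, total RNA was amplified by 2 rounds of in vitro transcription, and synthetic spikes served to normalize the data. The table holds the authors' deposited probe intensity, linear and already scaled, with software not given in the sources used here, and amplification can compress or distort differences between genes. The number of arrays limits the precision.

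Values coded -9999 (154 to 203 an array) were treated as missing. Values at or below 0 (291 to 352 an array) were replaced by the smallest positive value on their array, and log2 was taken. No further normalization was applied. Of the probes, 16865 carry 1 gene symbol, 165 several and 18099 none, and the last 2 classes were used only where all probes were tested. Identifiers of 16836 probes matched the RefSeq gene table (GRCr8), which updated 1 symbol. Each gene was represented by its probe with the highest mean.

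Populations were compared in 1 model of all genes and arrays with the two-sided moderated statistic of limma 3.58.1 under R 4.3.3 (functions lmFit and eBayes), with 6 residual and 1.76 prior degrees of freedom, no block for the numeral, and Benjamini-Hochberg adjustment over all genes. A gene passed at an adjusted p under 0.05. Intervals are unadjusted 95% intervals of the contrast. The members and gene lists were chosen with earlier results of these data known. The text names all members and related pump genes, the 2 genes of each other list with the smallest p in each comparison, the 5 genes most like Fxyd1 and 3 most like each other member, and the neighbours of Fxyd1. The fit was tested on simulated data with independent noise on each array and no numeral effect, so that test does not cover the numeral differences. Alternatives were quantile normalization, a floor at the 25th percentile, leaving out dim probes, averaging the probes of a gene, testing all probes, the numeral as a block, trend and robust variance estimates (statmod 1.5.0), only the 6 arrays compared, and leaving out each array. The numeral comparisons and their alternatives were added after the data were seen. The plots use matplotlib 3.10.9 (Python 3.11.15).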

Additional observations from a re-analysis of the deposited data

How the results depend on the processing

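The Fxyd1 differences from NG2, which were not tested, with 1 array left out were 1.13 to 1.55 for O4 minus NG2 and 1.29 to 1.76 for NG2/A2B5 minus NG2, for values that Fxyd1 was chosen by. Over the tested member differences between populations, 148 of 150 alternatives and 128 of 144 fits with 1 array left out kept the direction and the side of the threshold. Many of these fits could not change a sign, so the counts overstate stability. For members with 1 probe, only quantile normalization changed the estimate, and the other alternatives could change only its p-value. Leaving out an array of the population not compared also left the estimate as it was. The exceptions among the alternatives changed sign: Fxyd6 to -0.0019 for O4 minus NG2 with quantile normalization, and Atp1b2 to 0.054 for O4 minus NG2/A2B5 with its other probe. With 1 array left out, signs also changed for Fxyd1 (-0.42 to 0.034), Fxyd6 (-0.46 to 0.064) and Atp1b2 (-0.66 to 0.13) in O4 minus NG2/A2B5, for Fxyd5 (-0.10 to 0.23), Fxyd6 (-0.24 to 0.29), Atp1b1 (-0.38 to 0.093) and Atp1b2 (-0.11 to 0.68) in O4 minus NG2, and for Fxyd5 (-0.22 to 0.10) and Atp1b1 (-0.13 to 0.37) in NG2/A2B5 minus NG2. The cause was not tested.

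Among the other genes, the sign turned for Atp1b4 (0.70 with the mean of its probes, -0.18 to 0.075 with 1 array left out) in O4 minus NG2/A2B5. Atp12a, at -3.12 and -3.21 in O4 minus NG2/A2B5 and O4 minus NG2, took these values from 1 O4 array that read below 0, and with the floor it was at 0.17 and 0.16. Atp4b in NG2/A2B5 minus NG2 went to 0.020 with quantile normalization and 0.057 with the floor, and Kcnj16 in O4 minus NG2 to 0.12 with the floor. With 1 array left out, O4 minus NG2/A2B5 ranged over -0.52 to 0.00072 for Fxyd3, -0.15 to 0.74 for Atp4b and -0.80 to 0.40 for Nkain4. O4 minus NG2 ranged over -0.094 to 0.10 for Atp1b3, -0.22 to 0.30 for Fxyd3, -0.037 to 0.72 for Atp4b and -0.56 to 0.70 for Nkain4. NG2/A2B5 minus NG2 ranged over -0.013 to 0.25 for Atp1b3, -0.34 to 0.24 for Atp12a, -0.51 to 0.44 for Atp4b and -0.41 to 0.94 for Nkain4.

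The number of genes that passed was 1 in O4 minus NG2/A2B5, 1 in O4 minus NG2 (Igkv28 in both, named after its values were seen) and 0 in NG2/A2B5 minus NG2. It was 0 in both comparisons of O4 with dim probes left out, the floor, the replicate block, or trend and robust estimates, and 0 in O4 minus NG2 with only the 6 arrays compared. With the mean of a gene's probes, and with all probes, 2 passed in O4 minus NG2 and 1 in NG2/A2B5 minus NG2. With 1 array left out, 0 to 4, 1 to 2 and 0 to 3 passed. Pairing by numeral was checked by the correlation of deviations from population means, which was 0.037 to 0.144 for 9 same-number pairs, 3 of them over 0.1, and -0.107 to 0.0065 for 18 other pairs. All same-number correlations lay above all others, and each of the 9 arrays was closest to the arrays of its own number. This link comes from the data and not from the design, since no label ties a numeral to a culture. The main fit did not take the numerals as pairs, and differences given by numeral are descriptions. With the replicate block together with trend and robust estimates, 124 genes passed in O4 minus NG2 (75 higher, 49 lower) and 95 in NG2/A2B5 minus NG2 (67 higher, 28 lower), with 1 in O4 minus NG2/A2B5. No tested member passed under either block.

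For the numerals, 28 genes passed in II minus I (404 with the floor, 2 with the mean of probes, 836 with trend and robust estimates, 0 to 3 with 1 array left out), 0 in III minus I (49, 0, 312, and 0 to 2) and 433 in III minus II (1292, 136, 1884, and 0 to 5). Calls gained beside those of Fxyd1 and Fxyd6 in the report were Atp1b1 in II minus I (adjusted p 0.0246 with the floor, 0.00205 with trend and robust estimates), Atp1b2 in II minus I (0.0144, trend and robust) and Nkain4 in II minus I (0.0144 and 0.000540) and III minus I (0.00867, trend and robust). Fxyd2 changed sign between numerals, to -0.72 for II minus I and 0.37 for III minus II with the mean of its probes and to 0.023 for III minus I with the floor. With 1 array left out it ranged over -0.077 to 0.71 (II minus I), -0.48 to 0.51 (III minus I) and -0.77 to 0.22 (III minus II), and Atp1b1 over -0.010 to 0.16 (III minus I).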
